A study of Bos taurus with 8 samples.

Results

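The genes described here are 10 cadherins and epithelial-mesenchymal switch factors, measured in stem-like cells that were derived from bovine embryos (eSLCs) and in somatic cells (SCs). The members were chosen by name: CDH1, CDH3, EPCAM and GRHL2 as epithelial genes, CDH2 and CDH11 as mesenchymal cadherins, and SNAI2, ZEB1, ZEB2 and TWIST1 as mesenchymal transcription factors. An array feature was taken for a member when its RefSeq accession, without the version, belonged to that gene. Of the 10 members, 9 had such a feature among 12603 named genes, with 23 features in all, and GRHL2 was not analysed here. Of the 9, 8 entered the test, for which all arrays of some group had to read well above background. The test covered 10958 genes, without ZEB2.

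All samples came from HanWoo, the Korean native cattle, and each was hybridised to 1 single-colour Agilent bovine array. The 6 eSLC lines were derived from blastocysts of 3 origins: I2 (passage 35) and I9 (passage 30) from in vitro produced (IVP) embryos, N2 (passage 36) and N7 (passage 30) from somatic cell nuclear transfer (NT) embryos, and P1 (passage 31) and P4 (passage 36) from parthenogenetic (PA) embryos. All eSLCs grew on inactivated murine STO feeder cells in a serum-free medium with the inhibitors PD184352, SU5402 and CHIR99021. The SCs, at passages 5 and 10, grew in DMEM with fetal bovine serum, so that medium, feeder and cell type differ together between eSLCs and SCs. The labels do not name the tissue of the SCs. Each group has n = 2, each eSLC array is 1 line, and the SC arrays are 2 passages that nothing states to be separate cultures, so p-values measure only the spread between these samples. On slide 1 were both IVP lines, N7 and SC P5, and on slide 2 both PA lines, N2 and SC P10. The donor cells of the NT embryos came from ear skin.

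Classical cadherins are transmembrane proteins that join neighbouring cells through calcium-dependent binding, and their tails are held to actin by catenins. Epithelial cells carry E-cadherin (CDH1), and mesenchymal cells such as fibroblasts carry N-cadherin (CDH2) or cadherin-11 (CDH11) instead. The zinc-finger factors SNAI2, ZEB1 and ZEB2 and the basic helix-loop-helix factor TWIST1 are known repressors of the epithelial programme, while GRHL2 maintains it. In the mammalian blastocyst the trophectoderm is an epithelium whose cells adhere through E-cadherin junctions.

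Signals are background-subtracted intensities divided by the 75th percentile of the array, which is written as 1000. A probe counted as well above background by the flag of the scanner software. Signals of different probes cannot be compared with each other, so each gene is described across arrays. Between 71.2% and 76.7% of spots were well above background on an array, and the 75th percentile lay between 1192 and 4092 scanner units. Values below 13.3, the highest over arrays of the lowest signal well above background, were raised to this floor before taking log2. A fold written as "at least" uses a lower limit instead: each array of the dim group was set to its own lowest signal well above background (7.34 to 13.3) or to the probe's own signal if that was higher. It can therefore exceed the fold of the fitted log2 difference, which uses the common floor. The number of arrays limits the precision.

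The eSLC lines had high signals of the epithelial genes CDH1 and EPCAM and low signals of SNAI2, ZEB1, TWIST1 and CDH11, and the SCs had the opposite pattern. CDH2 was high in both SC arrays and in 1 eSLC line, N7. CDH3 did not separate the groups, with 192 to 468 in the eSLC lines and 329 and 293 in the SC arrays. In the limma test of eSLCs against SCs (mean of the 3 origin means minus the SC mean, Benjamini-Hochberg adjusted p under 0.05 and a difference of at least 2-fold), 2 of the 8 tested members were called higher and 5 lower. Over all 10958 genes, 19.7% were called higher and 15.7% lower. The members were chosen with results of these data known, so their share is a description. The groups did not overlap, on the 6 eSLC and 2 SC arrays, for 6 of the 8 members (CDH1, EPCAM, CDH11, SNAI2, ZEB1 and TWIST1), against 57.6% of all genes tested. With the scanner software's processed intensity, which did not follow the other columns in 6 of 8 tables, the calls of CDH1, SNAI2, ZEB1 and CDH2 were lost. The median log2 difference of the 8 members was -4.33, and that of all genes tested was 0.23.

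**Figure D1:**
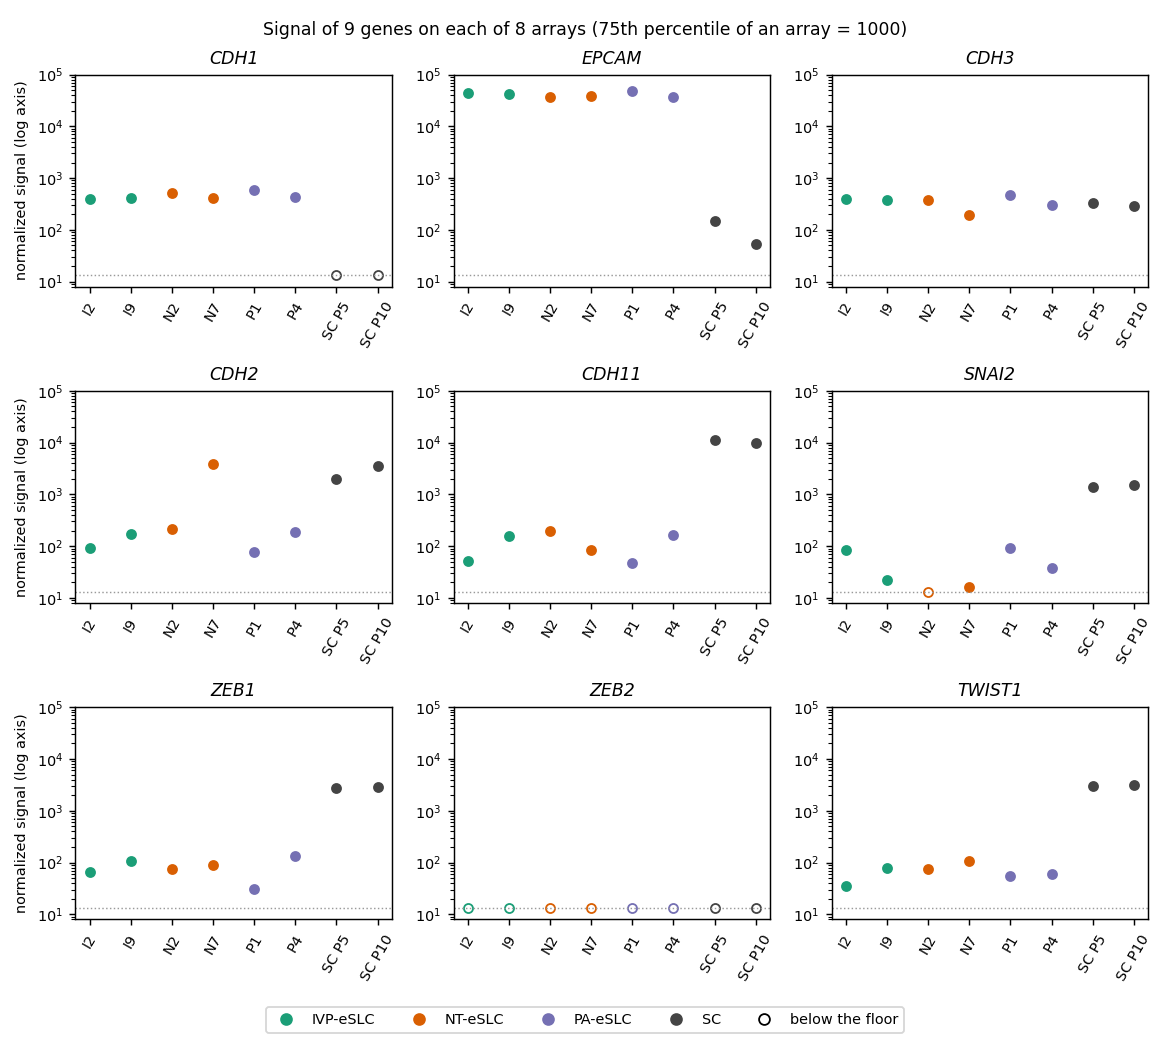
Normalized signal (log axis, 75th percentile of an array = 1000) of the brightest feature of 9 genes on each of 8 arrays, coloured by origin; open circles are values below the floor of 13.3 (dotted line). CDH1 and EPCAM are high in the 6 eSLC lines, CDH11, SNAI2, ZEB1 and TWIST1 are high in the 2 SC arrays, and CDH2 in N7 sits at 3894, above both SC arrays.

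CDH1 encodes E-cadherin, the adhesion molecule of adherens junctions between epithelial cells. Its normalized signal was 393 in I2, 409 in I9, 524 in N2, 416 in N7, 596 in P1 and 437 in P4, and it was 6.87 in SC P5 and 0.632 in SC P10. All 6 eSLC lines were well above background and neither SC array was, so the SC level is known only as a bound. By that bound the eSLC mean was at least 55.0-fold higher for the brighter feature and at least 52.7-fold higher for the second feature. CDH1 entered the test through the eSLC groups alone, so a difference was built into its passing the filter. With the common floor of 13.3 the fitted log2 difference was 5.11 (standard error 0.187, adjusted p = 1.5e-05, limma). The SD over the 6 eSLC lines was 0.24 on the log2 scale, with a median SD of 0.35 over all genes tested. Within slide 1 the difference was 4.93 and within slide 2 it was 5.28, each as a value from 3 eSLC arrays and 1 SC array.

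EPCAM encodes the epithelial cell adhesion molecule, a membrane glycoprotein of epithelia and of pluripotent cells. Its brighter feature read 43441 in I2, 42347 in I9, 36745 in N2, 38464 in N7, 49069 in P1 and 37023 in P4. The SC arrays read 147 at passage 5 and 54.2 at passage 10, both well above background. The 6 eSLC lines lay close together, with an SD of 0.16 on the log2 scale, and 10.7% of genes tested had a smaller one. The 2 SC arrays differed more, with an SD of 1.02. The log2 difference of eSLCs from SCs was 8.84 (standard error 0.377, adjusted p = 2.5e-05, limma), and within slides it was 8.14 on slide 1 and 9.55 on slide 2. The second feature lay between 20651 and 30474 in the eSLC lines and at 70.9 and 33.3 in the SC arrays.

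CDH3 encodes P-cadherin, a classical cadherin of placenta and of basal layers of stratified epithelia, and its gene is the direct neighbour of CDH1, with no protein-coding gene between them in the RefSeq annotation. Its signal was 390 in I2, 381 in I9, 373 in N2, 192 in N7, 468 in P1 and 297 in P4, and the SC arrays read 329 and 293. The groups overlapped, with N7 below both SC arrays. The log2 difference was 0.12 (standard error 0.307, adjusted p = 0.765, limma), and its sign changed with the slide, at -0.11 on slide 1 and 0.35 on slide 2. The second CDH3 feature was not well above background on any array, so the CDH3 values rest on 1 feature.

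CDH2 encodes N-cadherin, known from neural and mesenchymal cells. Its brightest feature read 90.6 in I2, 174 in I9, 214 in N2, 76.0 in P1 and 187 in P4, but 3894 in N7, and the SC arrays read 2020 and 3466. N7 therefore lay above both SC arrays, while the other 5 eSLC lines lay far below the lower of them. The remaining 3 CDH2 features gave the same split. The first of these read 1365 in N7, 811 in SC P5 and 1108 in SC P10, and between -0.657 and 2.55 in the other 5 lines. The second read 78.4 in N7 and 22.3 and 65.9 in the SC arrays, and the third read 43.8 in N7 and 28.0 and 40.6 in the SC arrays. In none of the other 5 eSLC lines was any of these 3 features well above background. For the first of them, N7 was at least 132-fold above the mean of the other 5 eSLC lines, and 103-fold with the common floor.

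The spread of CDH2 over the 6 eSLC lines, an SD of 2.06 on the log2 scale, was larger than that of 99.0% of the genes tested. The log2 difference of eSLCs from SCs was -3.47 (standard error 1.08, adjusted p = 0.042, limma). The call rested on the set of arrays used. It was kept without N7, at -4.17, and without N2, at -2.77. Either fit leaves 1 NT array, so the gap between N7 and N2 no longer counts as spread. The standard error fell to 0.510 and 0.531, so the call in these fits cannot be set beside that of the full fit. The call was lost when either IVP line, either PA line or either SC array was left out. The differences then lay between -3.86 and -3.08.

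**Figure D2:**
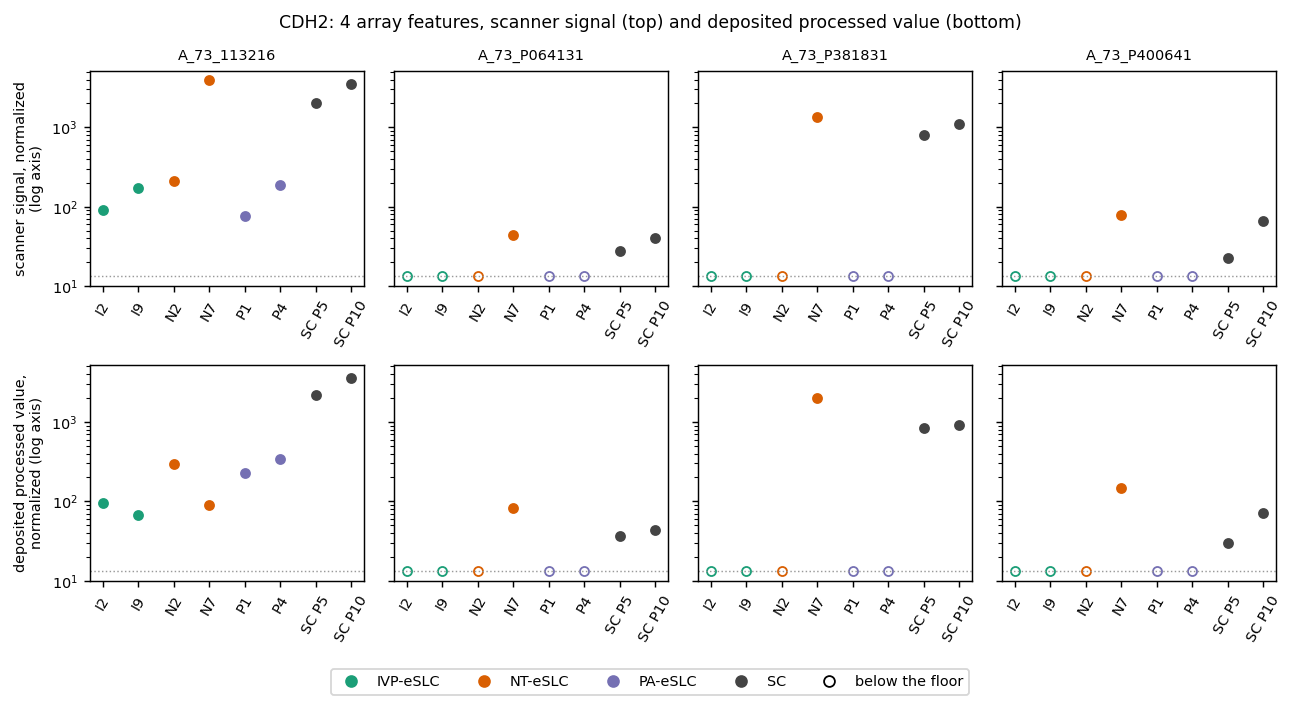
Normalized signal (log axis) of the 4 CDH2 features, named by their probe, on each array, from the scanner output (top) and from the processed table the authors deposited (bottom); open circles are values below the floor (dotted line). In the scanner output N7 is high for all 4 features, and in the processed table it is high for 3 and reads 90.6 for the leftmost.

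The processed table deposited by the authors, scaled here in the same way, differed from the scanner output for the brightest CDH2 feature. There N7 read 90.6, below N2 at 295, P1 at 228 and P4 at 337. The other 3 features still read 1983, 146 and 81.7 in N7 there, above both SC arrays. With the processed table the log2 difference of CDH2 from SCs was -4.18 (adjusted p = 2.4e-05, limma), and that of NT-eSLCs from SCs was -4.09 (adjusted p = 0.000312). With the scanner output NT-eSLCs differed by -1.54 (standard error 1.33, adjusted p = 0.409) and were not called. The reason for the mismatch in this feature was not tested.

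Genes outside the member list also set N7 apart. GATA4, a transcription factor of the hypoblast, read 2918 in N7, whereas the other 5 eSLC lines read 23.1 to 180. PDGFRA, the platelet-derived growth factor receptor of hypoblast and fibroblasts, read 1422 in N7 against 42.6 to 276 in the other lines, and POU5F1, the pluripotency factor, read 898 against 30.7 to 101. The 2 features of SOX17, another hypoblast factor, disagreed: the brighter read 2664 in N7, inside the range of the other lines (1908 to 2946), and the other read 966 in N7 against 34.2 to 204. AFP read 15.9 in N7, against 20.1 to 26.7 in the other eSLC lines and 15.5 in SC P10. All of these AFP values lie close to the floor, so the low rank of N7 among the eSLC lines carries little weight. They come from the brightest of 3 AFP features above background, and the other features were not compared by line. FN1, which encodes fibronectin, read 64259 in N7 and 7318 to 18836 elsewhere among the eSLC lines. The fibroblast markers as a whole did not rise together in N7: THY1 was 103, the lowest of the 6 lines, and COL1A1 was 919, also the lowest. In all, 33 of the 10958 genes were at least 16-fold higher in N7 than in every other eSLC line, against 2 genes in P1 and 0 in each of the other 4. That fold was chosen after these values were seen. What part these genes have in the CDH2 value was not tested.

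CDH11 encodes cadherin-11, also called osteoblast cadherin, which is found in fibroblasts and bone-forming cells. Its brightest feature read 51.5 in I2, 158 in I9, 196 in N2, 86.1 in N7, 47.7 in P1 and 167 in P4, and 11098 and 10019 in the SC arrays. The groups were far apart. On this feature I9, N2 and P4 were the higher eSLC lines and I2 and P1 the lower ones. The same lines were highest on the features that read 2272 and 2782 in SC P5. The log2 difference was -6.70 (standard error 0.654, adjusted p = 0.000596, limma), and within slides it was -6.97 and -6.43. All 5 CDH11 features were higher in the SC arrays. The feature with the smallest contrast lay between 102 and 136 in the eSLC lines and at 533 and 459 in the SC arrays. Its order of lines was another: P1 was the highest, and P4, at 108, lay below I2, at 109. The feature that was not well above background in any eSLC line read 471 and 275 in the SC arrays, at least 36.7-fold higher, with a log2 difference of -4.76 at the common floor. N7, the line with high CDH2, was not high for CDH11. In the processed table the authors deposited, the brightest feature read 199880 in SC P10, and the difference was -8.59, still called. The order of the lines also differed there, with I9 the lowest at 32.5 and P1 at 255.

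SNAI2 encodes Slug, a repressor that binds E-box sequences of epithelial genes and is active in neural crest and mesenchyme. Its signal was 85.3 in I2, 22.1 in I9, 7.22 in N2, 16.2 in N7, 90.3 in P1 and 37.2 in P4, and 1366 and 1509 in the SC arrays. N2 was not well above background. The eSLC lines differed more than for most genes, with an SD of 1.19 on the log2 scale, larger than that of 94.5% of genes tested. I2 and P1 were the higher lines and both NT lines the lowest. The log2 difference from SCs was -5.43 (standard error 0.573, adjusted p = 0.00079, limma), with -5.45 and -5.41 within the slides. The second feature was well above background only in I2 (10.6) and P1 (13.4) among the eSLC lines, the same lines as for the brighter feature, and at 217 and 224 in the SC arrays.

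ZEB1 encodes a zinc-finger and homeobox repressor of CDH1. Its brightest feature read 66.5 in I2, 108 in I9, 76.6 in N2, 90.1 in N7, 30.4 in P1 and 136 in P4, against 2749 and 2823 in the SC arrays. The log2 difference was -5.18 (standard error 0.556, adjusted p = 0.000847, limma), with -4.99 on slide 1 and -5.37 on slide 2. The other 3 features were also higher in both SC arrays, where they read between 147 and 1289, and lay between -1.36 and 36.2 in the eSLC lines. P1 had the lowest signal and P4 the highest for the brightest feature, although both lines are of PA origin. P1 was not the lowest on the other 3 features, where most eSLC values lay below the floor. In the processed table the authors deposited, the brightest feature read 163 in P1 and 25.9 in N7, the lowest line there.

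ZEB2 encodes the related repressor SIP1. Its single feature was well above background only in SC P10, at 12.3, and read between -1.54 and 4.47 on the other 7 arrays. Every value lay below the floor, so ZEB2 has no measured difference, and at this signal none was detectable.

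TWIST1 encodes a factor of mesoderm and neural crest. It read 35.4 in I2, 77.9 in I9, 74.6 in N2, 106 in N7, 54.9 in P1 and 58.9 in P4, and 2968 and 3089 in the SC arrays. The 2 SC arrays were close together and far from the eSLC lines. The log2 difference was -5.56 (standard error 0.324, adjusted p = 8e-05, limma), and -5.48 and -5.63 within slides.

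**Figure D3:**
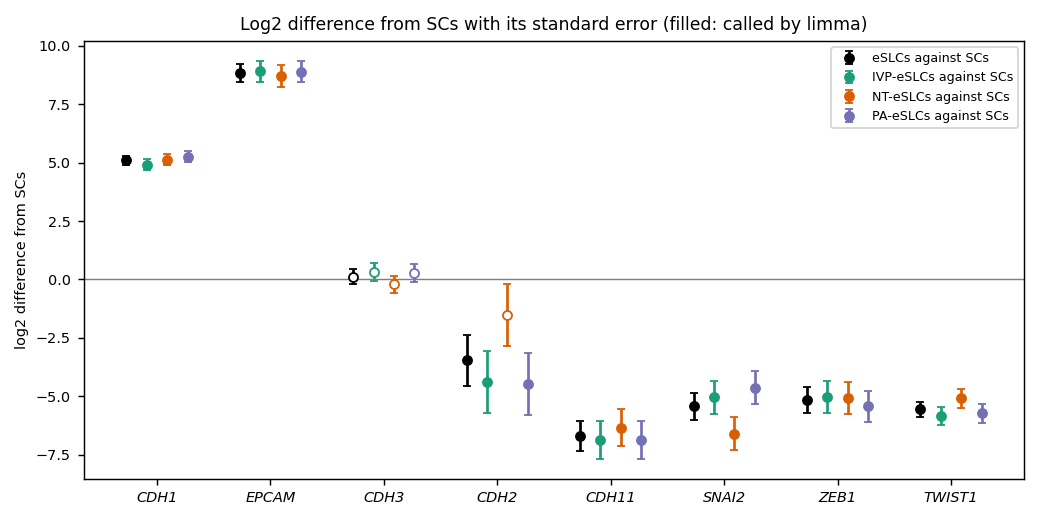
Log2 difference from SCs (vertical axis) with its standard error for 8 genes, for all eSLCs and for each origin; filled circles were called by limma and open circles were not. CDH1 lies near 5.11 and EPCAM near 8.84 for every origin, and CDH2 in NT-eSLCs, at -1.54, is the open circle with the wide error.

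Each origin was also compared with the SCs, and the 3 comparisons share the 2 SC arrays. For the IVP origin 2 members passed as higher and 5 as lower, beside 17.7% and 14.6% of all genes. For the NT origin the counts were 2 and 4, beside 15.8% and 13.9% of all genes. For the PA origin they were 2 and 5, beside 20.3% and 14.9% of all genes. CDH1 differed by 4.92, 5.13 and 5.26 on the log2 scale in IVP, NT and PA lines, and EPCAM by 8.91, 8.72 and 8.90. CDH11 differed by -6.87, -6.34 and -6.88, ZEB1 by -5.04, -5.07 and -5.44 and TWIST1 by -5.85, -5.09 and -5.74. CDH2 was -4.40 in IVP (adjusted p = 0.0452, limma) and -4.47 in PA lines (adjusted p = 0.0397). With the slide as a block the PA value was -3.62 and was no longer called (adjusted p = 0.108). SNAI2 was -5.05, -6.61 and -4.63.

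Between origins no member was called, and neither was any other gene: limma called 0% of genes for the NT lines and 0% for the PA lines, each set against the IVP lines. Without adjustment, p fell under 0.05 for 306 and 568 of 10958 genes, and none of the members was among them. A threshold of 0.05 passes about that fraction of genes when no gene differs. The NT lines differed from the IVP lines by 2.86 for CDH2 (standard error 1.33, unadjusted p = 0.0752, adjusted p = 1, limma), a mean of N7 and N2. Without N7 this difference was 0.76. SNAI2 differed by -1.56 (standard error 0.701, unadjusted p = 0.0675, adjusted p = 1). For the other 6 members the differences between origins lay between -0.53 and 0.76. All IVP arrays lay on slide 1 and all PA arrays on slide 2, so that slide and origin cannot be told apart in the PA comparison beyond what the NT and SC arrays allow.

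The remaining signal of the mesenchymal genes in the eSLC lines was set against the SC mean of the same feature, the brightest of each gene. CDH11 was between 0.452% and 1.86% of the SC mean, TWIST1 between 1.17% and 3.51%, ZEB1 between 1.09% and 4.89% and SNAI2 between 0.502% and 6.28%. CDH2 was between 2.77% and 7.79% in 5 lines and 142% in N7. The fibroblast genes VIM (vimentin, 0.402% to 2.27%), COL1A1 (1.02% to 2.61%) and COL1A2 (0.198% to 0.535%), the collagen I chains, had I9, N2 and P4 as their 3 highest lines, as CDH11 did, and so did S100A4 (0.0257% to 0.118%). These are 4 of the 11 fibroblast markers, and the other 7 had other lines on top. The order used for CDH11 is that of its brightest feature in the scanner output. COL3A1 was at 5.16% to 6.54%, DCN at 48.2% to 71.7% for its brightest feature and FN1 at 16.9% to 148%. The percents depend on the feature. Over features above background, log2 differences ran from -7.02 to -2.09 for CDH11, -10.9 to -4.75 for VIM and -7.77 to -2.51 for COL1A1. They ran from -12.3 to -5.58 for COL1A2 and -12.6 to -4.12 for COL3A1. For SNAI2 the 2 highest lines were I2 and P1 instead. In bulk RNA, fewer cells of a type and less RNA per cell cannot be told apart, and whether bovine fibroblasts or murine feeder cells add to these low signals was not tested.

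**Figure D4:**
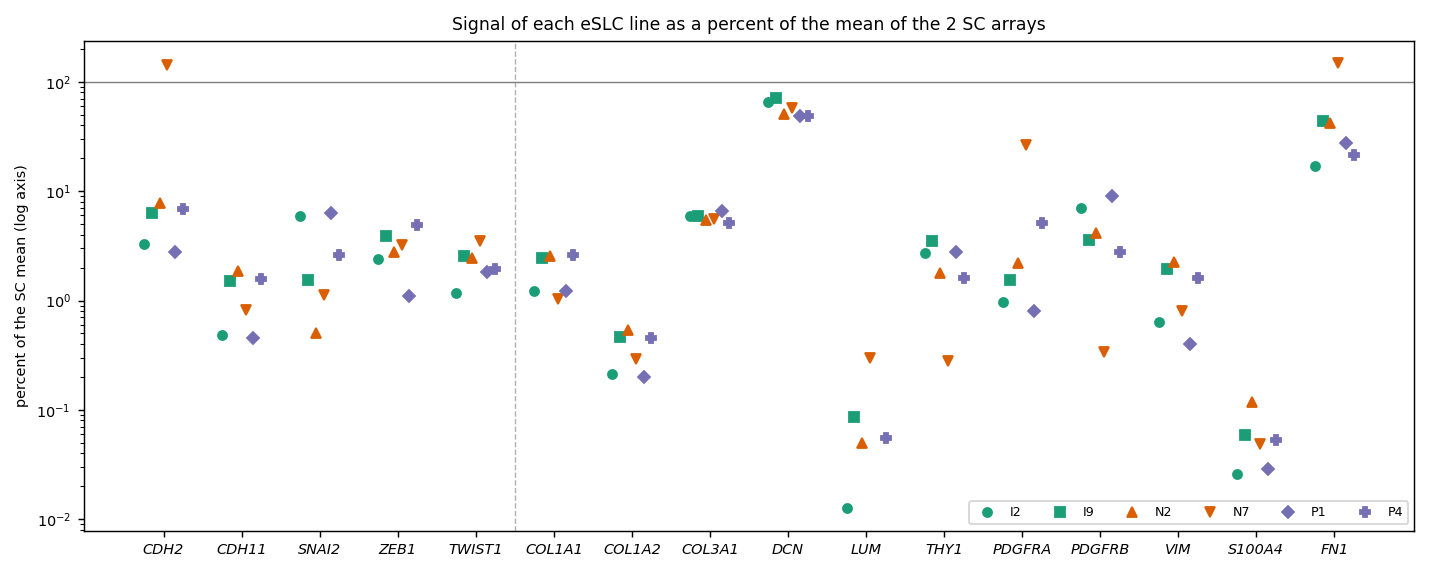
Signal of each eSLC line as a percent of the mean of the 2 SC arrays (log axis, brightest feature of each gene), with 1 symbol per line. The 5 mesenchymal members are left of the dashed line and the 11 fibroblast markers right of it. LUM in P1, below 0, is not drawn. CDH2 in N7 is at 142%, 4 of the 11 markers share I9, N2 and P4 with CDH11 as the higher lines and 7 do not, and SNAI2 in N2, at 0.502%, was not well above background.

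The markers of cell types were read beside these values. Over all genes tested, 19.7% were called higher in eSLCs and 15.7% lower. Of 11 fibroblast markers tested, 9 were called lower in eSLCs and 2, DCN and FN1, were not called. DCN was tested on its brightest feature (-0.80), and its 9 features above background ran from -11.3 to -0.48, so that other features read far lower in eSLCs. The summed signal of the 11 markers was 13505 to 71142 in the eSLC lines and 697910 to 860670 in the SC arrays. Bright probes dominate such a sum: in N7, FN1 alone read 64259 of 71142. Of 9 trophectoderm markers, 8 were called higher in eSLCs and TFAP2A was not called. Sums were 355370 to 965920 in eSLCs and 13123 to 13332 in SCs. In N7, the line with the lowest sum, KRT8 read 135060 and KRT18 read 130600. CDX2, the defining trophectoderm factor, was not well above background in either SC array and read 5183 to 14887 in the eSLC lines. Of 3 epiblast markers tested, SOX2 was called lower in eSLCs (46.8 to 99.4, against 459 and 551 in SCs), and NANOG and POU5F1 were not called. None of 5 keratinocyte markers was called. The endothelial cadherin CDH5 was not well above background on any array, while PECAM1 and CLDN5 were called higher among 5 endothelial markers tested. Of 4 blood markers PTPRC and CD14 were called higher, and of 4 muscle markers DES was. Each of these 5 calls rests on the brightest feature, and the features above background disagreed: their log2 differences ran from -0.16 to 2.53 for PECAM1, -0.29 to 3.24 for CLDN5, 0.17 to 2.15 for PTPRC, -0.0089 to 1.27 for CD14 and -8.01 to 3.11 for DES. The part of any of these in the member values was not tested.

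Other cadherins were split. Of 7 tested genes of that list, 2 were called higher and 3 lower in eSLCs, with a median log2 difference of -0.27. The shares over all genes tested were 19.7% higher and 15.7% lower. CDH13, the GPI-anchored T-cadherin, had the lowest value, at -7.52 (standard error 0.404, adjusted p = 5.7e-05, limma), with 23.8 to 242 in eSLC lines and 13006 and 12187 in SCs. CDH8 differed by -3.43, with 157 and 165 in SCs and 1.36 to 27.4 in the eSLC lines. Of these lines only I9 and P1 were well above background, so the CDH8 value depends on the floor. CDH10 differed by -2.35 and was at least 6.89-fold higher in SCs, being not well above background in any eSLC line. The 2 CDH10 features above background ran from -2.35 to -0.56. The higher calls were CDH7 (1.53) and CDH22 (1.45), both at low signals of 65.5 or less. CDH15, the muscle cadherin, was not called. CDH17, the liver-intestine cadherin, read 17.6 to 47.2 in the 6 eSLC lines, was not well above background in either SC array and was at least 3.19-fold higher in eSLCs. At the common floor its difference was 0.999 (adjusted p = 0.0271, limma), just under the 2-fold limit of a call.

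The adherens junction genes listed as partners of cadherins moved in both directions. Of 9 tested, 4 were called higher and 2 lower, beside 19.7% and 15.7% of all genes, with a median of 0.51. The higher ones were JUP (plakoglobin, 1.87), NECTIN4 (1.41, at least 4.25-fold, since it was not well above background in SCs), NECTIN2 (1.39) and CTNND1 (p120-catenin, 1.20). The 3 CTNND1 features above background ran from 0.59 to 2.48. The lower ones were CTNNAL1 (-2.39) and VCL (vinculin, -2.13), which binds actin at junctions and focal adhesions. CTNNB1 (beta-catenin) differed by -0.23 (adjusted p = 0.48, limma) and CTNNA1 (alpha-catenin) by 0.51 (adjusted p = 0.066), and neither was called.

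Desmosomes are the junctions that hold keratin filaments through desmosomal cadherins and plakins. Of 9 tested desmosome genes, 8 were called higher in eSLCs and 0 lower, beside 19.7% and 15.7% of all genes. Their median log2 difference was 6.12. DSP (desmoplakin) differed by 7.86 and DSG2 (desmoglein-2) by 6.94 on their brightest features. PKP3 (plakophilin-3) was called with 1125 to 2549.5 in the eSLC lines and 15.0 and 9.20 in the SC arrays. DSP read 26386 to 51574 in the eSLC lines and 194 and 142 in the SC arrays. DSC1 was not called.

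GRHL2 was not analysed, but other epithelial regulators were. Of 11 epithelial transcription and splicing factors tested, 10 were called higher and 0 lower, beside 19.7% and 15.7% of all genes. Their median was 4.79. GRHL1, a grainyhead factor like GRHL2, read 8393 to 15923 in eSLC lines and 20.1 and 34.2 in SCs. The difference was 8.75 (standard error 0.259, adjusted p = 7.7e-06, limma) on this brightest feature. Its 3 features above background ran from 4.30 to 8.75. OVOL2, a zinc-finger factor that represses ZEB1, was at least 581-fold higher in eSLCs, and ESRP1, which directs epithelial splicing, at least 169-fold. TFCP2L1 differed by 1.91 and was not called.

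Of 14 epithelial surface and polarity genes tested, 13 were called higher and 0 lower, beside 19.7% and 15.7% of all genes. Their median was 5.30. The membrane serine proteases PRSS8 and ST14 differed by 8.90 and 8.28, and their inhibitor SPINT1 by 9.04, on their brightest features. Over features above background, PRSS8 ran from 5.20 to 8.90, ST14 from 3.79 to 8.28 and SPINT1 from 4.85 to 9.04. LLGL2, a polarity gene, was not called. Among 8 other mesenchymal transcription factors tested, 5 were called lower and 1 higher, beside 15.7% and 19.7% of all genes. Their median was -1.76. PRRX1 (-7.74), TBX18 (-6.37) and TWIST2 (-5.99) had the lowest adjusted p among the lower calls, and SNAI1 (Snail) differed by -1.44. GSC (goosecoid), known as a homeobox factor of the organizer, went the other way, at 2.61, with at least 9.78-fold higher signal in eSLCs.

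**Figure D5:**
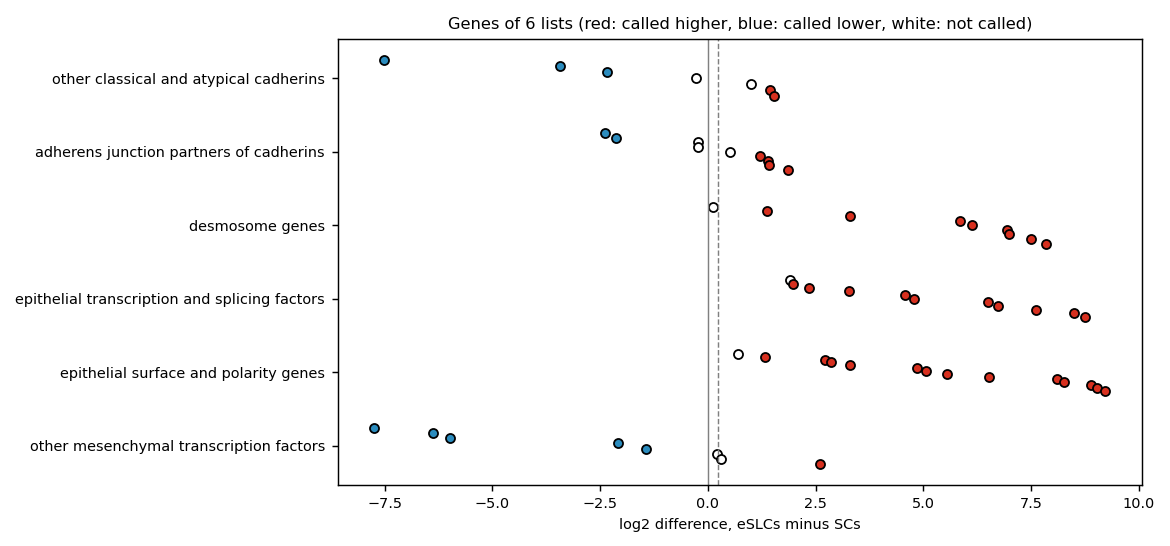
Log2 difference of eSLCs from SCs (horizontal axis) for every tested gene of 6 lists, 1 point per gene, with red points called higher, blue called lower and white not called; the dashed line is the median of all genes tested, 0.23. Desmosome, epithelial factor and epithelial surface genes lie to the right, with medians of 6.12, 4.79 and 5.30, and cadherins and junction partners lie on both sides.

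For the 6 members above the floor on all 8 arrays, the genes with the most similar profile were found by the root mean square difference of log2 signals, each gene centred on its mean over the 8 arrays. For CDH11 the nearest gene was VIM (0.22), followed by FYN (0.40). For CDH2 it was FST, which encodes follistatin (0.44), with 7274 in N7, 83.2 to 362 in the other eSLC lines and 2125 and 2684 in the SC arrays, followed by PRDM1 (0.61). For EPCAM the nearest genes were BSPRY (0.28) and SPINT1 (0.30), and for CDH3 MAF (0.12) and KLHL22 (0.12). ZEB1 was nearest to OSR1 (0.42) and PHETA2 (0.43), and TWIST1 to RPRM (0.37) and LOC514876 (0.39). These are ranks within 8 arrays, and for the members that separate eSLCs from SCs that separation makes up most of the profile.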

How the data were processed

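The authors labelled total RNA with Cy3, hybridised it to Agilent bovine arrays and deposited the spot intensity tables of Feature Extraction, designed on UMD3.1, plus a table of processed signals from GeneSpring GX. The background-subtracted intensity was used here, because the processed intensity in 6 of the 8 deposited scanner tables did not follow the other columns (Spearman 0.16 to 0.22 against it, and 0.97 in I2 and N2). Spots flagged as outliers (1 to 11 per array) and controls were dropped, spots of a probe averaged, and arrays scaled to the 75th percentile. Of 43653 probes, 26743 received a gene symbol by RefSeq accession, giving 12603 genes, and the brightest probe represented a gene. The reference table is of another assembly, so no coordinates are given. Values were floored at 13.3, log2-transformed and fitted with limma 3.58.1 (R 4.3.3) on all 8 arrays, with 1 mean per group, and the fit was tested on simulated data. The mean-signal column planned for the normexp alternative was not used here, and the median-signal column took its place (offset 50). Alternatives covered scaling, filters, slide, test and left-out arrays. The members and gene lists were chosen with earlier results of these data known. Genes were named as follows: all members, per list the 3 called higher and the 3 called lower with the lowest adjusted p and any call against the list's majority, and the 2 nearest profiles of each member above the floor. Any other gene with values, such as the markers, was named after its values were seen. The authors' fold-change comparisons were not used.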

Additional observations from a re-analysis of the deposited data

Results flagged for a closer look

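Among 32 genes examined over the 6 eSLC lines, 4 had a line whose gap to its nearest neighbour took up more of the whole range than Dixon's 95% critical value for 6 samples. Chance gives about 1 such gene in 20 when values are normal, not floored and not picked beforehand. These genes were picked with results of these data known, and some values were floored. The number found was therefore not compared with chance. For CDH2, N7 was the highest line and its gap was 0.738 of the range of log2 signals. For CDH8, P1 was the highest line, with a ratio of 1.0, since its signal was 27.4 and the other 5 lines were below the floor. A ratio of 1.0 follows from the floor whenever the other 5 lines lie below it. For ESRP1, N7 was the lowest line (ratio 0.648), at 1040 against 1360 to 1572 in the others. For NECTIN4, P1 was the lowest line (ratio 0.671), at 18.9 against 34.6 to 46.6. CDH2 in N7 is the widest of these in signal and was seen by 4 features.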

How the results depend on the processing

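The calls of EPCAM, CDH11 and TWIST1 were kept under every alternative that had a test, and those of CDH1, SNAI2 and ZEB1 under all that tested them but the processed intensity of the scanner tables, where CDH1 was 1.00, SNAI2 -2.16 and ZEB1 -3.89 (adjusted p = 0.698, 0.798 and 0.744, limma). With that column 1 member was called higher and 2 lower in eSLCs, 1 and 2 in IVP, 1 and 1 in NT and 1 and 1 in PA lines, and 272 genes were higher and 174 lower against 2155 and 1719. Requiring all 8 arrays above background removed CDH1 and SNAI2 from the test, leaving 1 member called higher in eSLCs and in each origin, and 4 lower in eSLCs, IVP and PA and 3 in NT lines. The t-test named in the methods, after Benjamini-Hochberg adjustment, called 1 member higher and 0 lower in IVP lines, 1 and 2 in NT lines and, in PA lines, 1 lower. Counting the SC arrays as 1 sample gave 1342 genes higher and 1126 lower. Leaving out each array in turn gave 1285 to 2196 genes higher, the lowest without SC P5, and 1077 to 1736 lower, the lowest without SC P5 (1142 without SC P10). The CDH2 call was lost in 14 of 27 alternatives, its differences lying between -5.04 and -1.06. CDH3, not called, turned to -0.39 with the deposited processed table and -0.11 within slide 1, and lay between -0.038 (without N2) and 0.28 without single arrays. The cause of these changes was not tested. With 2 arrays a group, n and the floor of 13.3 limit what can be seen at low signal. With the slide as a block, the CDH2 call in PA lines was lost and no other call of a member against SCs changed. No paired analysis was possible because the labels number every array as replicate 1, so the numbers 1 and 2 used here only name samples.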

Other observations

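In the processed table the authors deposited, both EPCAM features carried the same scaled value in I2 (42921) and in SC P5 (144), while in the scanner output they read 43441 and 24481 in I2 and 147 and 70.9 in SC P5. The brightest CDH11 feature read 199880 in SC P10 in that table and 10019 in the scanner output, and 13545 against 11098 in SC P5. The other 4 CDH11 features read 1895, 403, 2436 and 224 in SC P10 there, near their scanner values of 2082, 459, 2695 and 275.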
